A study of Homo sapiens with 44 samples.

Results

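The carcinoembryonic antigen related cell adhesion molecules (CEACAMs) are cell surface glycoproteins of the immunoglobulin superfamily, and 5 of their genes are described here: CEACAM6, CEACAM5, CEACAM7, CEACAM1 and CEACAM19. They are 5 of the 58721 gene identifiers in each deposited count table, found by their GENCODE 29 symbols. They were chosen by their levels across the 12 sample groups, in CPM (read counts scaled to library size), so their levels and fold changes are given as a description, without a p-value, and support nothing beyond themselves.

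All 44 libraries are polyA RNA-seq of A549, a human lung adenocarcinoma line, or of lines derived from it that carry a truncated TAZ2 domain of p300. p300 (EP300) is a lysine acetyltransferase and transcriptional coactivator, and TAZ2 is one of its domains that bind activators. Cultured cells (3 libraries each) and xenograft tumours taken at day 30 (4 libraries each) came from the lines het1, het2 and homo and from the parental WT line. Tumours of het1 and of WT were also sequenced after 4 weeks of SAHA, a histone deacetylase inhibitor also called vorinostat, or of DMSO, its vehicle (4 libraries each). The labels name het1, het2 and homo without the alleles, and each genotype is a single line. They do not say which libraries had a culture or an animal of their own, so a p-value reflects only how far the libraries at hand scatter, which may be technical scatter. The host of the xenografts and the treatment of host reads are likewise not stated there.

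CEACAM5, CEACAM6 and CEACAM7 are held in the outer leaflet of the plasma membrane by a glycosylphosphatidylinositol (GPI) anchor. CEACAM1 instead crosses the membrane and carries cytoplasmic inhibitory motifs that bind the tyrosine phosphatases SHP-1 and SHP-2. The proteins bind themselves and each other between neighbouring cells. CEACAM5 is carcinoembryonic antigen, the tumour marker measured in blood, and CEACAM6 is known for protecting carcinoma cells from death after detachment. CEACAM7 is best known from colonic epithelium, and CEACAM19 is a little studied transmembrane member.

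The 5 genes lie on the long arm of chromosome 19 (GRCh38). CEACAM7 (ENSG00000007306, chr19:41673307-41706976, minus strand) and CEACAM5 (ENSG00000105388, chr19:41708585-41729798, plus strand) are divergent neighbours, 1608 bases apart. CEACAM6 (ENSG00000086548, chr19:41750977-41772208, plus strand) follows after 21178 bases. CEACAM1 (ENSG00000079385, chr19:42507304-42561234, minus strand) lies 735095 bases beyond CEACAM6, and CEACAM19 (ENSG00000186567, chr19:44662278-44684359, plus strand) another 2101043 bases on.

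The promoters of CEACAM6, CEACAM5, CEACAM7 and CEACAM1 each hold the letters of an E-box just before the RefSeq start of the gene. An E-box is a short site bound by basic helix-loop-helix factors. The windows below, from the RefSeq promoter table (GRCh38.p14), show it in capitals, each 5′ to 3′ on its gene's own strand. They are shown because the 4 genes sit at nearly the same distance from this site and differ in its letters.
CEACAM6: gcacccatgaccCACGTGaccctgggaaat
CEACAM5: acacccatgaccCACGTGatgctgagaagt
CEACAM7: ccacccctggacCATGTGatcttggaaagt
CEACAM1: cccgccccagcaCACATGatcagacaaagc
The windows are chr19:41755473-41755502 (plus strand) for CEACAM6, chr19:41708568-41708597 (plus) for CEACAM5, chr19:41688297-41688326 (minus) for CEACAM7 and chr19:42528505-42528534 (minus) for CEACAM1. The windows of CEACAM6, CEACAM7 and CEACAM1 lie inside the gene spans given above, and that of CEACAM5 crosses the edge of its span. The RefSeq starts used here thus differ from the starts of those spans. The gap given above between CEACAM7 and CEACAM5 is not the gap between their promoters shown here. The E-box began 45, 46, 44 and 41 bases before the RefSeq start of CEACAM6, CEACAM5, CEACAM7 and CEACAM1. CEACAM6 and CEACAM5 carried the palindrome CACGTG, which 6.34% of 35116 RefSeq promoters (250 bases before the start, both strands) also held. CEACAM7 and CEACAM1 had only letters of the wider class CANNTG there, which includes CACGTG and occurred in 61.8% of those promoters. No CACGTG was found in the same stretch of the granulocyte genes CEACAM3 and CEACAM8, described further on.

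Other motifs matched 1 member each. TATAAA, in 10.7% of all promoters, matched only CEACAM6 among the 4, at 139 to 134 bases before the start. CCACCC (31.3% of promoters), sought for Krüppel-like factors, matched only CEACAM7. GGGGCGG (29.3%) and GAAA repeated after 2 free bases (3.02%), the letters sought for SP1-like and interferon regulatory factors, matched only CEACAM1. Over 250 bases CEACAM5 and CEACAM7 were the most alike, identical at 84.4% of aligned bases, against 72.0% for CEACAM1 and CEACAM5, the least alike pair. Each match is a string of letters, not a bound site, and parts of these windows are annotated as exon by GENCODE 29.

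Sequence likeness also bears on how reads were assigned, since the genes are close paralogs. The coding sequence of CEACAM6 was identical to that of CEACAM5 at 90.4% of aligned bases and to that of CEACAM1 at 90.3%. CEACAM7 was further off, at 82.8% to CEACAM6, and CEACAM19 shared no run of more than 11 bases with any other member. Reads from the longest runs that CEACAM6 shares with the granulocyte genes CEACAM3 and CEACAM8 cannot be told apart if they fall wholly inside them. Those runs are shown because the 2 genes tracked CEACAM6 in every tumour group, as described further on.
CEACAM6 and CEACAM3: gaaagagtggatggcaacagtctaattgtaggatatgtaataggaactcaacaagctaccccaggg
CEACAM6 and CEACAM8: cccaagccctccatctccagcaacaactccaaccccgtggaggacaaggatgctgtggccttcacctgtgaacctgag
The first run is 66 bases long in exon 2 of CEACAM6 (chr19:41756746-41756811, plus strand, GRCh38) and the second 78 bases long in exon 3 (chr19:41761257-41761334). Other members share such runs too. The longest with CEACAM3 were 78 bases for CEACAM5 and 74 for CEACAM1, and with CEACAM8 54 and 75 bases. CEACAM3 was identical to CEACAM5 at 90.6% of aligned coding bases, against 84.8% for CEACAM6.

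Of all 75-base windows in the annotated transcripts, 0.134% of those of CEACAM6 and 0.110% of those of CEACAM5 recurred in another gene once AC243967.1 was set aside. AC243967.1 is annotated across both genes on the same strand, shares 544 exonic bases with CEACAM5 and 172 with CEACAM6, and had 0 counts in every library. With it, the shares were 2.69% for CEACAM6 and 13.9% for CEACAM5. CEACAM1 had 0.753% and CEACAM19 0.853%, while no 75-base window of CEACAM7 occurred elsewhere. The shares depend on the window length. With 50-base windows and AC243967.1 set aside, they were 4.06% for CEACAM6, 2.70% for CEACAM5 and 3.29% for CEACAM1. With 100-base windows they were 0% for CEACAM6, 0% for CEACAM5 and 0.301% for CEACAM1. The labels and processing notes state neither the read length nor the mode of counting, so which window length applies is not known.

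CEACAM6 was the most abundant member in WT cells and the one that differed most between the cultured lines. It had 28.0, 28.1 and 30.5 CPM in het1 cells, 0.807, 1.04 and 1.67 CPM in het2 cells, and 1 count in each of the 3 libraries of homo cells, against 262, 271 and 282 CPM in WT cells. No library of any line overlapped another line. The fitted log2 fold change against WT was -3.24 ± 0.07 (SE) in het1 and -7.88 ± 0.10 in het2. Between the heterozygous lines it was 4.65 ± 0.11, with het1 higher than het2. Ranked by CPM per kilobase of exon among all 58721 genes, CEACAM6 stood at 4814 in het1 cells, 15778 in het2 cells and 31942 in homo cells, against 481 in WT cells. In bulk RNA, fewer cells that express a gene and less RNA per cell cannot be told apart.

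CEACAM5 was low in all cultures. It had 4 to 9 counts per library in het1 cells, 0 to 3 in het2 cells and 0 to 1 in homo cells, against 4.36, 7.30 and 9.71 CPM (271 to 837 counts) in WT cells. Every library of the edited lines lay below the lowest WT library. Scaled for depth, the ratio of summed counts of WT over het1 cells was 87.9 (95% counting interval 56.1 to 146), over het2 cells 371 (159 to 1145) and over homo cells 764 (211 to 6312). CEACAM7 was barely present, with 0 counts in all het1 and het2 libraries, 0, 4 and 0 counts in homo cells, and 9, 25 and 7 counts in WT cells. A sum of 0 over the 3 libraries allows up to 0.0133 CPM in het1 cells and 0.0120 CPM in het2 cells, with counting error alone considered.

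CEACAM1, the inhibitory transmembrane member, differed by less. It had 3.89, 3.97 and 4.03 CPM in het1 cells, 2.63, 3.13 and 3.15 in het2 cells and 1.01, 1.04 and 1.13 in homo cells, against 7.02, 7.78 and 8.47 CPM in WT cells. The 4 lines did not overlap. The log2 fold change against WT was -0.97 ± 0.10 in het1, -1.39 ± 0.10 in het2 and -2.87 ± 0.12 in homo (SE).

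CEACAM19 stood apart from the other members in culture. Its means were 4.73 ± 0.36 CPM in het1 cells, 4.98 ± 0.59 in het2 cells and 6.22 ± 0.59 in homo cells, against 7.31 ± 0.50 CPM in WT cells (SD, n = 3 each). The homo libraries, at 5.58 to 6.74 CPM, came closest to the WT libraries, at 6.84 to 7.83 CPM. CEACAM6, CEACAM5 and CEACAM1, by contrast, had their lowest mean in homo cells.

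**Figure D1:**
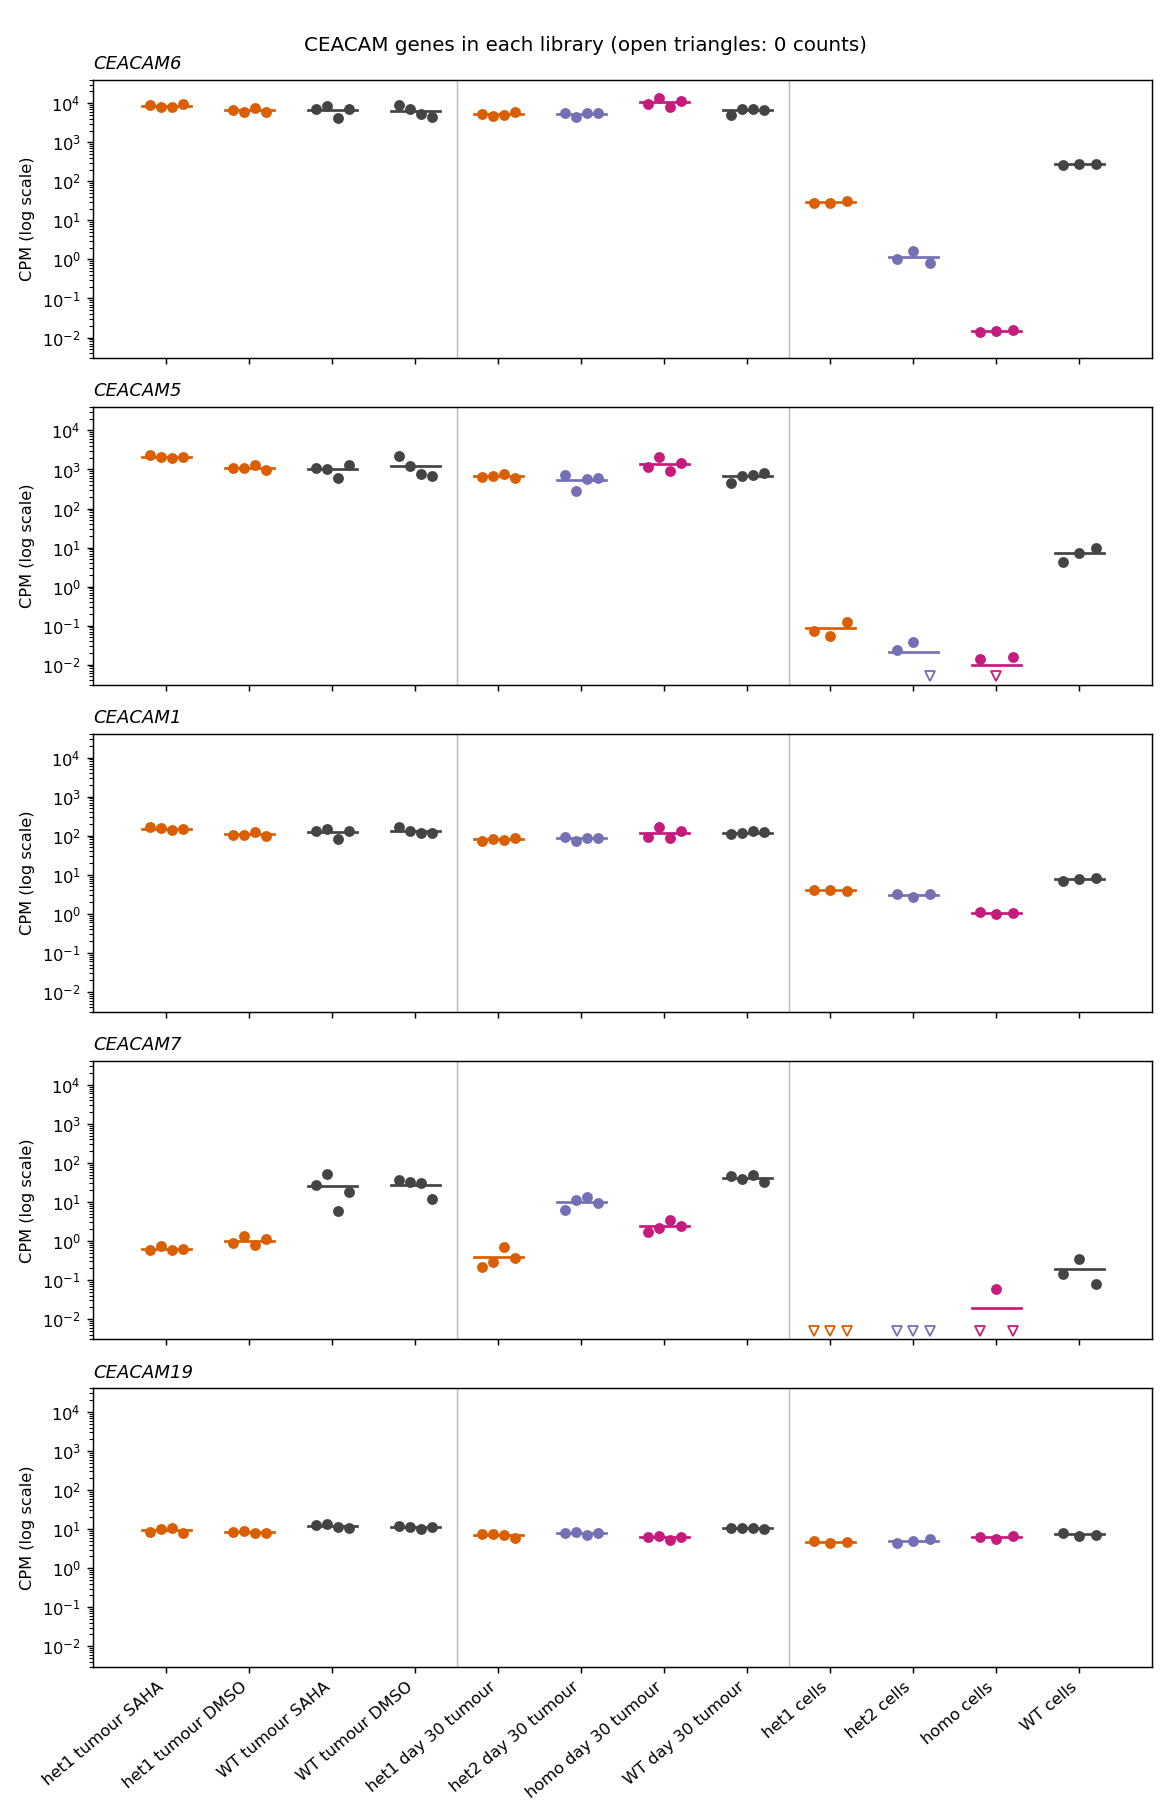
CPM of each member (log scale, 1 panel per gene) in each of the 44 libraries, grouped by line and source. Points are libraries, open triangles libraries with 0 counts, and bars group means. CEACAM6 ranges from 1 count per library in homo cells to 13800.4 CPM in a homo tumour, while CEACAM19 group means stay between 4.73 and 12.2 CPM.

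In the day 30 tumours CEACAM6 was high in every line, and highest in the line where it was almost absent in culture. It had 4702, 5146, 5292 and 5955 CPM in het1 tumours and 4527, 5481, 5633 and 5639.8 CPM in het2 tumours. Homo tumours had 7994, 9495, 11367 and 13800.4 CPM, against 4979, 6906, 7244 and 7292 CPM in WT tumours. All 4 homo tumours lay above all other day 30 tumours, whereas het1 and het2 overlapped with WT. The fitted log2 fold change against WT was 0.69 ± 0.15 for homo, -0.32 ± 0.15 for het1 and -0.31 ± 0.15 for het2 (SE). CEACAM6 took up 0.811% to 1.38% of all counts in homo tumours, against 0.494% to 0.724% in WT tumours. By CPM per kilobase it ranked between 8 and 19 among all genes in the 8 tumour groups.

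CEACAM5 followed a similar order. It had 607, 635, 662 and 760.0 CPM in het1 tumours, 286, 557, 618 and 743 in het2 tumours and 896, 1170.0, 1458 and 2116 in homo tumours, against 438, 667, 724 and 816 CPM in WT tumours. The homo tumours did not overlap with any other day 30 group, and the remaining 3 groups overlapped. Its log2 fold change against WT was 1.09 ± 0.31 for homo, 0.01 ± 0.30 for het1 and -0.26 ± 0.30 for het2 (SE).

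CEACAM1 was lower in tumours of both heterozygous lines and spread widely in homo. It had 75.03 to 85.2 CPM in het1 tumours, 74.7 to 91.6 in het2 tumours and 87.8 to 167 in homo tumours, against 109.7 to 129 CPM in WT tumours. Neither heterozygous group overlapped with WT, and homo did. The log2 fold change against WT was -0.58 ± 0.16 for het1, -0.49 ± 0.16 for het2 and -0.01 ± 0.16 for homo (SE).

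CEACAM7 had another order, with WT highest. It had 0.219, 0.290, 0.368 and 0.697 CPM in het1 tumours, 6.17, 9.12, 11.2 and 13.1 in het2 tumours and 1.71, 2.19, 2.37 and 3.52 in homo tumours, against 32.0, 39.0, 44.9 and 48.9 CPM in WT tumours. The 4 lines did not overlap, and het1 was the lowest. The log2 fold change against WT was -6.69 ± 0.35 for het1, -2.06 ± 0.25 for het2 and -4.06 ± 0.29 for homo (SE). Homo tumours had the highest day 30 levels of CEACAM5, the neighbour of CEACAM7, and levels of CEACAM7 below het2 and WT. Whether gene order or promoter sequence has a part in these levels was not tested.

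CEACAM19 means were 7.09 ± 0.80 CPM in het1 tumours, 7.85 ± 0.60 in het2 tumours and 6.11 ± 0.58 in homo tumours, against 10.5 ± 0.52 CPM in WT tumours (SD, n = 4 each). Every tumour of the edited lines was below the lowest WT tumour, at 9.83 CPM.

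Cells and tumours are in separate tables, each scaled on its own, so the step between them is given as a level and not tested. Tumour over cell ratios of summed CEACAM6 counts, scaled for depth, were 184 in het1 (95% counting interval 179 to 188), 4598 in het2 (4097 to 5179) and 725999 in homo (248423 to 3520440), against 24.2 (24.1 to 24.4) in WT. The homo ratio rests on 3 counts in cells. For CEACAM5 they were 7893 in het1 (5054 to 13110), 27148 in het2 (11633 to 83612) and 143444 in homo (39709 to 1184470), against 89.9 (85.6 to 94.4) in WT. Both genes had their smallest ratio in WT, the line with the highest cultured level.

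CEACAM1 ratios were 20.3 in het1, 28.5 in het2 and 111 in homo, against 15.4 in WT. CEACAM7 was at least 29.9-fold higher in tumours than in cells of het1 and at least 830.2-fold higher in het2, both against a floor of 3 counts over the group of cells. In homo its ratio was 130 (50.6 to 478), from 4 counts in cells, against 221 (163 to 308) in WT. CEACAM19 had the smallest ratios, at 1.49 in het1 (1.38 to 1.60), 1.57 in het2 (1.47 to 1.68) and 0.976 in homo (0.907 to 1.05), against 1.44 in WT (1.36 to 1.53), and its tumour and cell libraries overlapped only in homo. These intervals cover counting error only.

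Of the summed CPM per kilobase of CEACAM1, CEACAM5, CEACAM6 and CEACAM7, CEACAM6 made up 92.7% in het1 cells, 41.3% in het2 cells and 2.31% in homo cells, against 96.1% in WT cells. CEACAM1 made up 58.0% in het2 cells and 92.7% in homo cells, against 1.52% in WT cells. In the 8 tumour groups CEACAM6 again led, at 81.1% to 90.5%, with CEACAM5 next at 8.23% to 18.1%.

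The treated tumours repeated the CEACAM7 difference between het1 and WT. CEACAM19 was again lower in het1, at a log2 fold change of -0.44 under DMSO and -0.40 under SAHA. CEACAM1, lower in het1 without overlap at day 30, now overlapped. It had 98.7 to 125 CPM in DMSO-treated het1 tumours, against 114 to 168 CPM in DMSO-treated WT tumours. In het1, all SAHA libraries lay above all DMSO libraries for CEACAM5, CEACAM6 and CEACAM1, and below them for CEACAM7. The share of all genes whose libraries separate in this way was not computed, so nothing is read from how many members did. The genome-wide fit described below called only 1 of the 5 members there, CEACAM1, where 16.8% of all genes were called. CEACAM5 had 1968, 2118, 2128 and 2369 CPM in SAHA-treated het1 tumours, against 953, 1064, 1099 and 1293 CPM in DMSO-treated het1 tumours. The groups did not overlap. In WT it had 588, 1042, 1121 and 1318 CPM with SAHA, against 698, 762, 1194 and 2228 CPM with DMSO, and the groups overlapped. The log2 fold change of SAHA against DMSO was 0.96 ± 0.33 in het1 and -0.26 ± 0.33 in WT, and the difference of these (the interaction of SAHA and genotype) was 1.22 ± 0.47 (SE).

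CEACAM6 had 8027, 8216, 9081 and 9599 CPM in SAHA-treated het1 tumours, against 5935, 6077, 6683 and 7486 CPM in DMSO-treated het1 tumours. Every SAHA library was above every DMSO library in het1. WT tumours had 4123, 7051, 7060.2 and 8738 CPM with SAHA, against 4382, 5262, 6973 and 8987 CPM with DMSO, and the groups overlapped. The log2 fold change was 0.42 ± 0.22 in het1 and 0.08 ± 0.22 in WT (SE).

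CEACAM1 had 139.6 to 164 CPM in SAHA-treated het1 tumours, against 98.7 to 125 CPM in DMSO-treated het1 tumours, without overlap, for a log2 fold change of 0.50 ± 0.16 (SE). In WT it had 82.8 to 145 CPM with SAHA, against 114 to 168 CPM with DMSO. CEACAM7 had 0.577 to 0.723 CPM in SAHA-treated and 0.781 to 1.34 CPM in DMSO-treated het1 tumours, without overlap. WT tumours had 5.77, 17.9, 27.3 and 52.4 CPM of CEACAM7 with SAHA, against 12.1, 29.8, 32.7 and 35.4 CPM with DMSO. The log2 fold change of het1 against WT was -5.35 ± 0.66 under SAHA and -4.75 ± 0.62 under DMSO (SE), so the CEACAM7 difference of the day 30 tumours was also present in the treated tumours. CEACAM19 means were 9.25 ± 1.43 CPM with SAHA and 8.22 ± 0.35 CPM with DMSO in het1, and 12.2 ± 1.41 CPM with SAHA and 11.1 ± 0.97 CPM with DMSO in WT (SD, n = 4 each).

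Single libraries stood out across several members at once. Among the WT DMSO tumours 1 library was the highest for CEACAM6, CEACAM5, CEACAM1 and CEACAM7. Without that library (replicate 2), the log2 fold change of CEACAM5 for SAHA in WT was 0.20, against -0.26 with it. Leaving out each library in turn, the interaction of SAHA and genotype for CEACAM5 ranged from 0.76 to 1.42. Among the WT SAHA tumours 1 library was the lowest for the same 4 genes, with 4123, 588, 82.8 and 5.77 CPM, and it had the highest sum of fibroblast markers in its group, 514 CPM against 180 to 304 CPM in the other 3. Whether the fibroblast content had a part in its CEACAM levels was not tested.

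**Figure D2:**
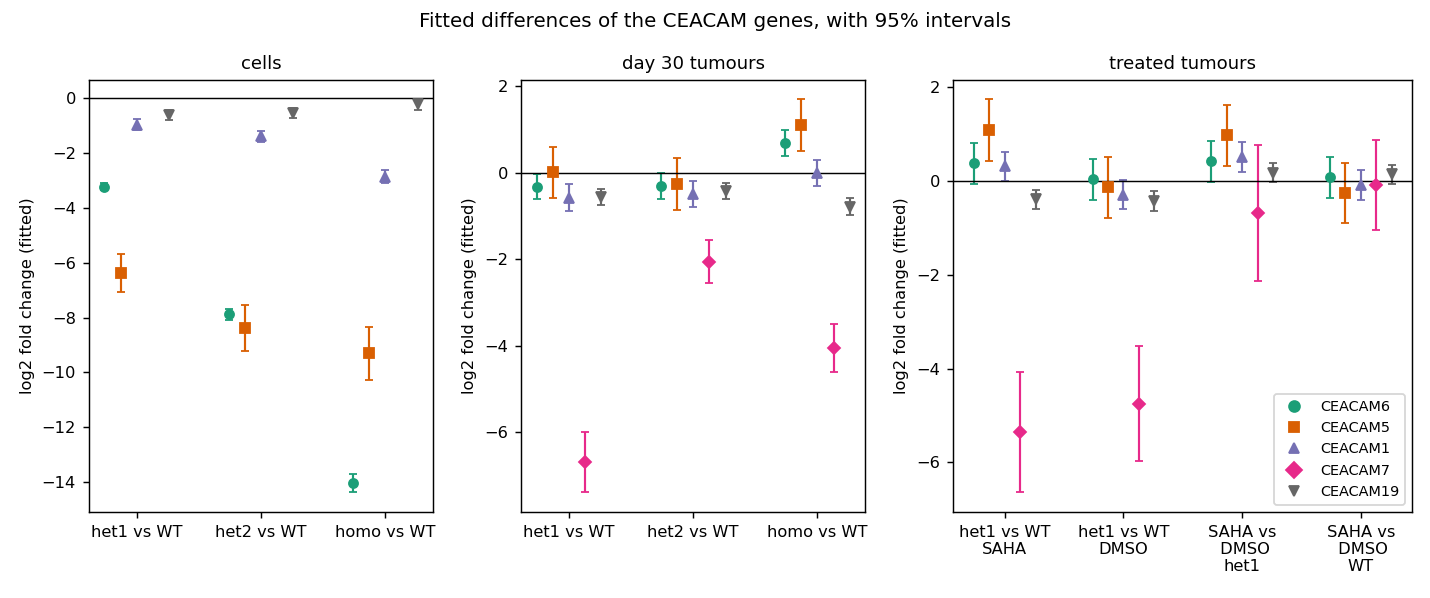
Fitted log2 fold change of each member (points, with 95% intervals) for each edited line against WT in cells, day 30 tumours and treated tumours, and for SAHA against DMSO. In the comparisons drawn, CEACAM6 runs from -14.03 in homo against WT cells to 0.69 in homo against WT tumours, and CEACAM7 is the lowest member in every comparison of a line with WT tumours.

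The genome-wide fit (edgeR quasi-likelihood test, adjusted p under 0.05 over all genes tested) gives the scale for how many members were called. Because the members were chosen on these same groups, nothing is read from their counts. In cells, where CEACAM7 was too low to be tested, it called 4 of 4 members in het1 against WT, where 62.8% of all tested genes were called. The same count of 4 was reached in het2 against WT, with 68.5% of all genes called, and in homo against WT, with 70.5%. Homo against the mean of the heterozygous lines gave 3 of 4 (49.9% of all genes), and het1 against het2 gave 2 of 4 (55.7%). These comparisons share their WT, het1 or het2 libraries. Over all genes tested, 6949 rose and 6691 fell in het1 cells against WT, 7625 and 7233 in het2, and 7685 and 7608 in homo. At day 30 these were 6032 and 5580 in het1, 5493 and 5591 in het2, and 6099 and 6250 in homo. The counts of listed genes further on are to be read beside these.

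In day 30 tumours the fit called 3 of 5 members in het1 against WT (51.5% of all genes called), 3 of 5 in het2 against WT (49.2%) and 4 of 5 in homo against WT (54.8%). Homo against the mean of the heterozygous lines gave 4 of 5 (44.7%) and het1 against het2 gave 1 of 5 (49.3%), which was CEACAM7. In treated tumours het1 against WT gave 2 of 5 under DMSO (54% of all genes) and 3 of 5 under SAHA (58.9%). SAHA against DMSO in het1 gave 1 of 5, CEACAM1 (16.8% of all genes).

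SAHA against DMSO in WT called none of the 5 members and 0% of all genes by the edgeR test, although 1911 genes had an unadjusted p under 0.05 and DESeq2 called 150 genes, none of them a member. The interaction called none of the 5 (4.72% of all genes), with an unadjusted p under 0.05 for 2 members and 0 called by DESeq2. The count of 1 for SAHA in het1 lay between 0 and 4 under other settings, and CEACAM1 was lost in 7 of the 8 fits that left out 1 of its libraries, with a log2 fold change between 0.45 and 0.57. Elsewhere, the call of CEACAM19 in homo against WT cells was lost without WT replicate 1 or without homo replicate 2, and that of CEACAM1 in het2 against WT tumours without het2 replicate 1 (-0.42). CEACAM6 was called in het1 (-0.44) and het2 (-0.43) against WT tumours once WT replicate 0 was left out.

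Across the 12 groups, CEACAM6 means were highest in homo tumours and next in SAHA-treated het1 tumours, and every pair of neighbouring tumour groups in that order overlapped in range. The 4 groups of cells came last, in the order WT, het1, het2 and homo, without overlap. CEACAM5 had SAHA-treated het1 tumours first, ahead of homo tumours, with overlap between them. CEACAM7 had the 3 WT tumour groups first, followed by het2, homo and the 3 het1 tumour groups, and day 30 het1 tumours overlapped with WT cells. CEACAM19 had neighbours that overlapped at every step.

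**Figure D3:**
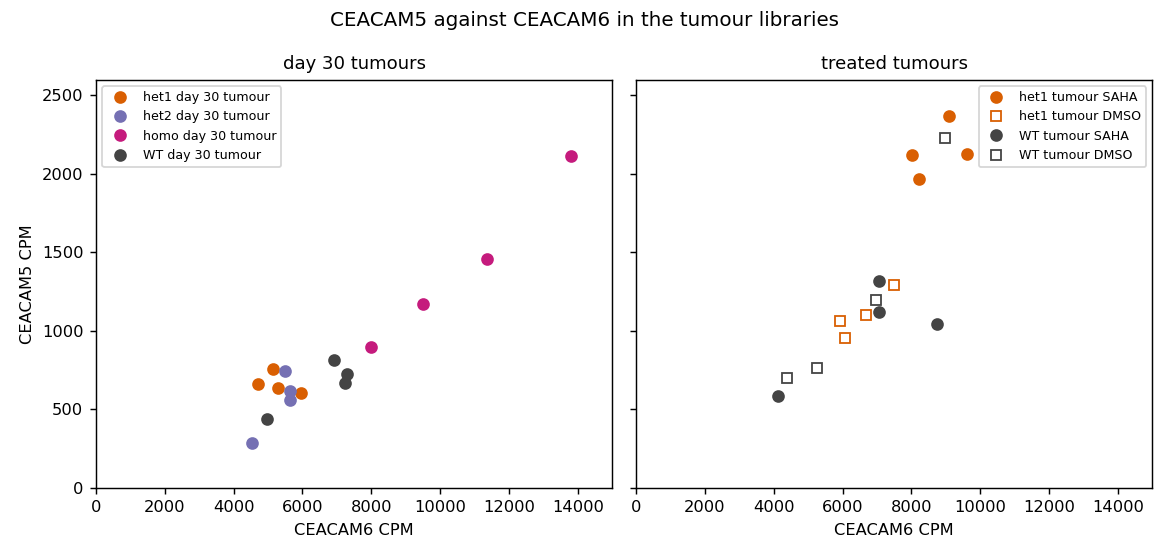
CEACAM5 against CEACAM6 (CPM, linear axes) in each tumour library, with day 30 tumours on the left and treated tumours on the right. SAHA-treated het1 tumours reach 1968 to 2369 CPM of CEACAM5 at 8027 to 9599 CPM of CEACAM6, whereas homo tumours reach 13800.4 CPM of CEACAM6 at 2116 CPM of CEACAM5.

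Over the tumour groups, the ratio to CEACAM6 varied far more for CEACAM7 than for CEACAM3 and CEACAM8, and moderately more for CEACAM5 and CEACAM1. The highest group was 2.45-fold above the lowest for CEACAM5 and 1.83-fold for CEACAM1, against 1.24-fold for CEACAM3 and 1.23-fold for CEACAM8. CEACAM3 is a phagocytic receptor of granulocytes and CEACAM8 is CD66b, a GPI-anchored granulocyte protein. CEACAM3 counts were 0.464% to 0.573% of CEACAM6 counts in the 8 tumour groups, and CEACAM8 counts 0.0476% to 0.0587%. CEACAM5 ranged from 10.1% to 24.7%, CEACAM1 from 1.12% to 2.06%, and CEACAM7 from 0.00729% to 0.620%, an 85.1-fold range. In cells CEACAM3 was at 0.416% of CEACAM6 in het1 (95% counting interval 0.274% to 0.605%) and, from 4 counts, at 1.39% in het2 (0.376% to 3.59%), against 0.481% in WT (0.427% to 0.540%).

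Because they kept so close to CEACAM6, the levels of CEACAM3 and CEACAM8 are given without a test. CEACAM3 had 27 counts in het1 cells, 4 in het2 cells and 0 in homo cells, against 290 in WT cells. In homo tumours at day 30 it had 53.0 ± 12.4 CPM, against 30.7 ± 5.2 CPM in WT tumours (SD, n = 4 each). CEACAM8 averaged 2.87 CPM in het1, 2.70 in het2 and 5.09 in homo tumours, against 3.89 CPM in WT tumours. Of the other granulocyte markers, MPO had 0 counts in het1 and het2 tumours at day 30 and in WT tumours, and FCGR3B 0 in homo and WT tumours. CSF3R averaged 0.0247, 0.109 and 0.0416 CPM in het1, het2 and homo tumours, against 0.00844 CPM in WT tumours. ELANE, neutrophil elastase, averaged 0.345, 0.312 and 0.367 CPM in the same lines, against 0.0620 CPM in WT tumours, and rose in all 3 (adjusted p = 0.000168, 0.00037 and 0.000105). What part reads of CEACAM6, CEACAM5 or CEACAM1 assigned to CEACAM3 and CEACAM8 have in these counts was not tested.

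**Figure D4:**
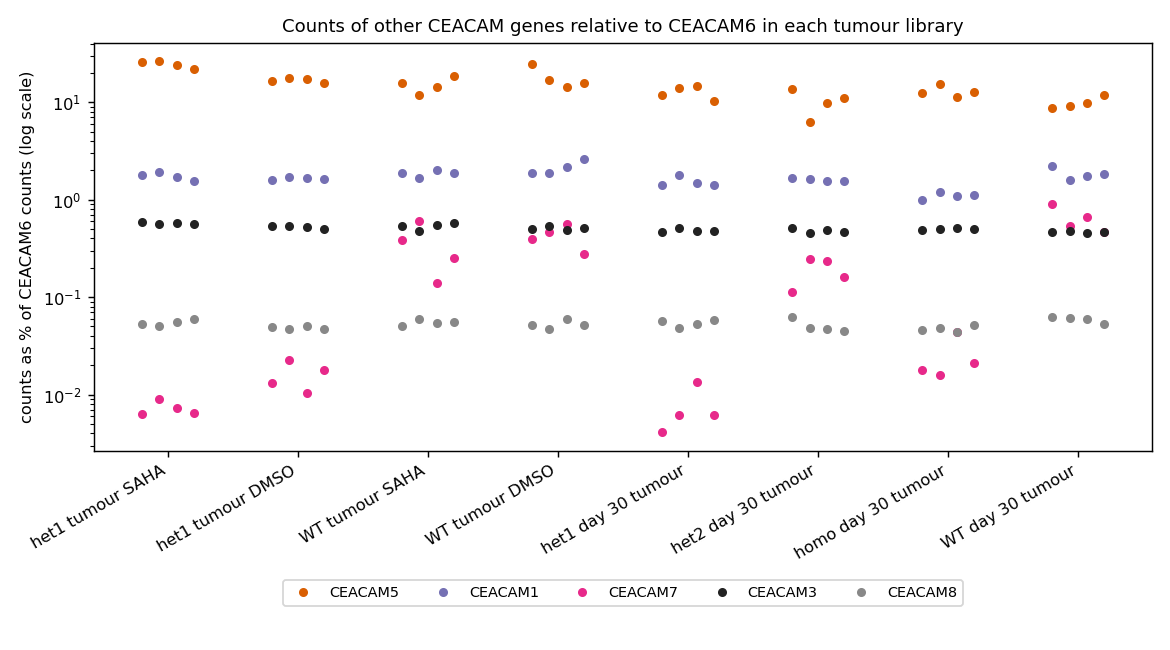
Counts of CEACAM5, CEACAM1, CEACAM7, CEACAM3 and CEACAM8 as a percent of CEACAM6 counts (log scale) in each tumour library. Summed over a group, CEACAM3 and CEACAM8 lie nearly flat, at 0.464% to 0.573% and 0.0476% to 0.0587%, while CEACAM7 spans 0.00729% to 0.620%.

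The other 7 CEACAM genes were mostly silent. In cells only CEACAM3 was expressed enough to be tested, and in day 30 tumours CEACAM3, CEACAM8 and CEACAM21 were. CEACAM21 rose in tumours of all 3 lines at very low counts, with 36 summed counts in het1, 43 in het2 and 89 in homo, against 8 in WT (adjusted p = 0.0223, 0.0227 and 0.000319 in that order). In treated het1 tumours it had 98 counts with SAHA and 52 with DMSO, against 0 counts in both WT groups. Of 12 CEACAM pseudogenes, 1 was tested in tumours, and none was called in the line against WT comparisons at day 30 by edgeR.

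The pregnancy-specific glycoprotein (PSG) genes, placental relatives that lie between CEACAM1 and CEACAM19, were low in culture and too low to be tested in day 30 tumours. Of 10 PSG genes, 4 were tested in cells, and 3 fell in het1, 4 in het2 and 4 in homo, with medians of -2.50, -3.96 and -5.04 on the log2 scale. The median over all genes tested was 0.03, 0.02 and 0.01 in the same comparisons. PSG5 averaged 0.0932 CPM in het1 cells, 0.0512 in het2 cells and 0.0247 in homo cells, against 0.923 CPM in WT cells, with adjusted p = 6.37e-09, 1.9e-10 and 4.27e-11. PSG4 averaged 0.292, 0.156 and 0.0422 CPM in those lines, against 1.38 CPM in WT cells. The PSG gene that did not pass in het1 was PSG9 (log2 fold change -1.31 ± 0.60, adjusted p = 0.0549). At day 30 no PSG gene reached the level needed for a test while CEACAM6 stood at 4527 CPM or more.

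The 31 genes within 200 kb of a member, which include several CEACAM and PSG genes, moved in both directions, and more rose than fell. Of 18 tested in cells, 9 rose and 5 fell in het1, 10 and 5 in het2, and 11 and 6 in homo. Their median log2 fold changes were 0.34, 0.67 and 0.55, against 0.03, 0.02 and 0.01 over all genes tested. BCAM, a laminin-binding adhesion molecule of the immunoglobulin superfamily near CEACAM19, rose by 1.13 ± 0.04 in het1, 1.17 ± 0.04 in het2 and 1.40 ± 0.04 in homo cells on the log2 scale (SE, adjusted p = 8.48e-23, 2.5e-23 and 1.4e-25). PVR, the poliovirus receptor, which shares 121 exonic bases with CEACAM19, fell by 0.90, 0.80 and 1.07 on the log2 scale in het1, het2 and homo cells (adjusted p = 1.54e-23, 2.7e-22 and 1.06e-25). Of 21 neighbours tested at day 30, 9 rose and 3 fell in het1, 11 and 3 in het2, and 11 and 4 in homo.

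In the cultured lines 62.8%, 68.5% and 70.5% of all genes were called against WT, in het1, het2 and homo. Of the regulators reported for CEACAM genes in other work, more fell than rose there. Of 14 listed, 13 were tested in cells, and 2 rose and 8 fell in het1, 2 and 8 in het2, and 3 and 9 in homo, with medians of -0.35, -0.32 and -0.26 on the log2 scale. HNF4A, a nuclear receptor of liver and gut epithelium, averaged 11.5 ± 0.98 CPM in het1 cells, 0.305 in het2 cells and 0.146 in homo cells, against 70.9 ± 1.81 CPM in WT cells (SD, n = 3). Its log2 fold change was -2.63 ± 0.07 in het1, -7.82 ± 0.12 in het2 and -8.91 ± 0.14 in homo (SE, adjusted p = 4.34e-22, 4.29e-28 and 5.04e-28). The order of HNF4A over the 4 cultured lines was that of CEACAM6, as was that of genes outside this list such as KRT19 and MUC5B.

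ELF3, an epithelial ETS factor, averaged 75.02 CPM in het1 cells, 16.1 in het2 cells and 6.56 in homo cells, against 158 CPM in WT cells, with log2 fold changes of -1.07, -3.30 and -4.59 (adjusted p = 2.31e-22, 3.65e-34 and 7.79e-37). KLF5, a zinc finger factor of epithelial cells, fell by 1.64, 3.43 and 4.19 (adjusted p = 9.75e-27, 4.5e-34 and 1.06e-35). SOX9 did not follow that order: it averaged 15.4 CPM in het1 cells, 19.9 in het2 cells and 6.77 in homo cells, against 67.1 CPM in WT cells. Its adjusted p was 2.23e-27, 1.39e-25 and 1.24e-31. HIF1A differed in sign between the heterozygous lines, at -1.14 ± 0.03 in het1 and 0.58 ± 0.03 in het2 (SE, adjusted p = 1.34e-26 and 7.19e-19).

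USF1 and USF2, which bind CACGTG E-boxes, changed little in culture. They were named for that site after their values were seen. USF1 averaged 35.1 CPM in het1 cells, 36.2 in het2 cells and 34.0 in homo cells, against 31.0 CPM in WT cells, a rise of 0.18, 0.22 and 0.13 on the log2 scale (adjusted p = 0.000644, 2.84e-05 and 0.00882). USF2 averaged 98.0, 98.8 and 90.4 CPM in the same lines, against 102 CPM in WT cells, and fell in homo cells (log2 fold change -0.17 ± 0.03, adjusted p = 3.28e-05).

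At day 30, HNF4A averaged 129 CPM in het1, 90.0 in het2 and 80.1 in homo, against 145 CPM in WT tumours, and the falls of 0.69 in het2 and 0.86 in homo on the log2 scale passed the test (adjusted p = 5.59e-07 and 1.86e-08). ELF3 fell by 0.69 on the log2 scale in homo tumours (adjusted p = 6.59e-08), while its log2 fold changes of -0.16 ± 0.07 in het1 and -0.14 ± 0.07 in het2 did not pass the test (SE, adjusted p = 0.0723 and 0.113). SOX9 fell by 1.06 in het1, 1.10 in het2 and 1.15 in homo (adjusted p = 4.66e-07, 3.66e-07 and 1.58e-07). Of 13 regulators tested at day 30, 1 rose and 5 fell in het1, 4 and 7 in het2, and 0 and 7 in homo. In homo tumours, where CEACAM6 and CEACAM5 were highest at day 30, HNF4A, ELF3 and SOX9 were lower than in WT tumours. KLF4 was not: it averaged 49.0 CPM in het1, 62.1 in het2 and 83.4 in homo, against 75.7 CPM in WT tumours. The part of these factors in CEACAM levels, in cells, at day 30 or under treatment, was not tested. In treated tumours HNF4A was lower with SAHA in het1 (log2 fold change -0.42 ± 0.07, adjusted p = 0.000334). Its interaction of SAHA and genotype was -0.51 ± 0.09 (SE, adjusted p = 0.00509). Of 13 regulators tested, 1 rose and 3 fell with SAHA in het1. All SAHA libraries of het1 lay above all DMSO libraries for CEACAM5, CEACAM6 and CEACAM1, and of these only CEACAM1 was called.

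**Figure D5:**
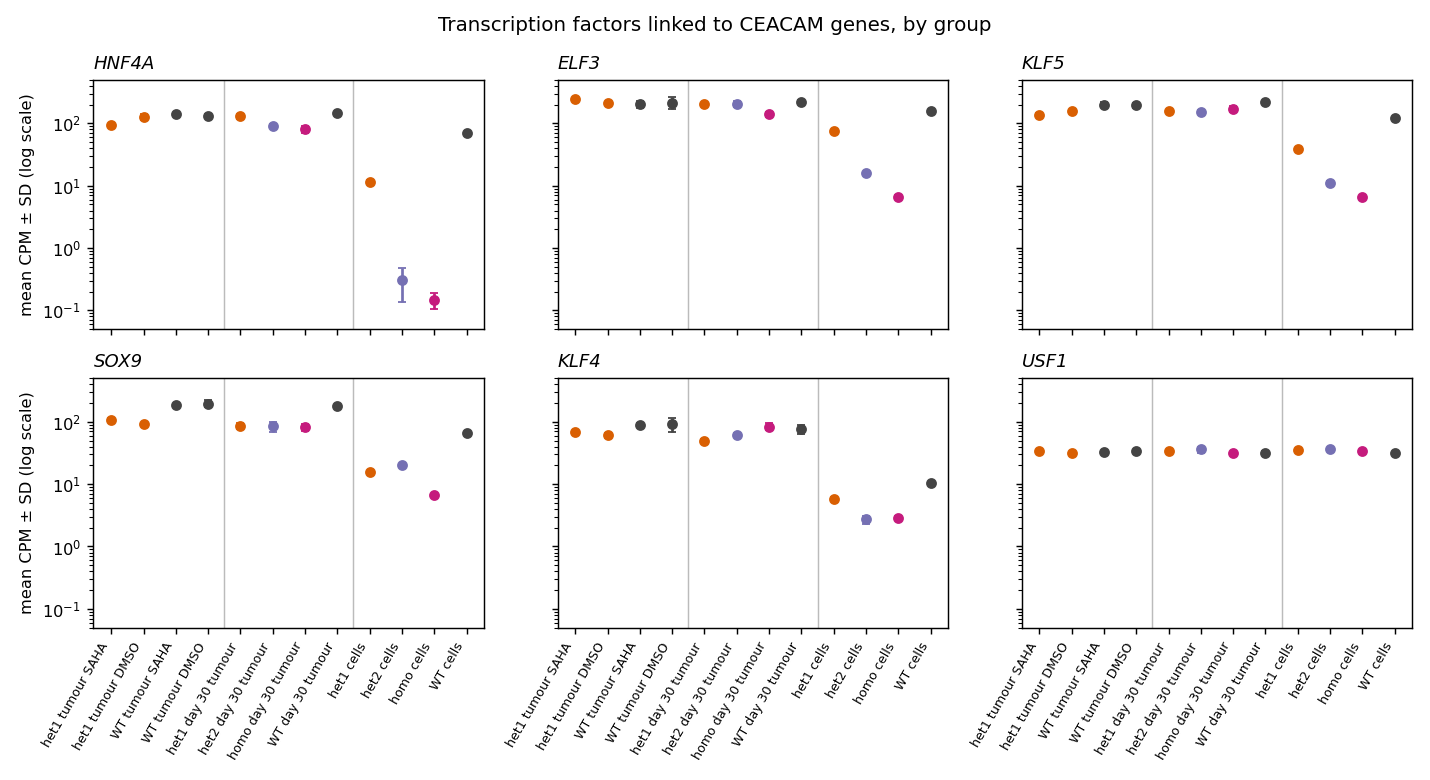
CPM (log scale, the same axis in each panel) of HNF4A, ELF3, KLF5, SOX9, KLF4 and USF1, as the mean (points) and SD (bars) of each of the 12 groups. In cells HNF4A averages 11.5, 0.305 and 0.146 CPM in het1, het2 and homo, against 70.9 CPM in WT, while USF1 stays between 34.0 and 36.2 CPM in the lines, against 31.0 CPM in WT.

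The GPI transamidase attaches the anchor that CEACAM5, CEACAM6 and CEACAM7 need. Of its 5 subunit genes in cells, 1 rose and 4 fell in het1 and 1 rose and 3 fell in each of het2 and homo. In day 30 tumours 3 rose and 2 fell in het1, 3 rose in het2 and 4 rose in homo. PIGS averaged 129 CPM in het1, 129 in het2 and 197 in homo tumours, against 93.7 CPM in WT tumours, a rise of 0.46, 0.46 and 1.07 on the log2 scale (adjusted p = 4.96e-07, 6.64e-07 and 1.58e-12). PIGK, the catalytic subunit, rose by 0.74, 0.49 and 0.98 (adjusted p = 1.36e-09, 6.66e-07 and 1.66e-11), and PIGT by 0.98, 0.59 and 0.87 (adjusted p = 6.94e-11, 1.67e-07 and 3.09e-10). The median over all genes tested was 0.02, -0.01 and 0.01 in these comparisons.

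Genes of proteins that signal with CEACAMs moved in both directions. Of 15 listed, 14 were tested in cells, and 5 rose and 6 fell in het1, 5 and 8 in het2, and 5 and 7 in homo. SRC, a tyrosine kinase linked to CEACAM6 signalling, averaged 121 CPM in het1, 94.9 in het2 and 59.3 in homo cells, against 306 CPM in WT cells (adjusted p = 1.39e-27, 2.52e-30 and 5.21e-34). EGFR, which CEACAM1 can restrain, fell by 1.73, 0.98 and 2.08 on the log2 scale in those cells (adjusted p = 1.53e-31, 2.29e-25 and 6.58e-34). In tumours SRC was nearer to WT, with 396, 400.2 and 311 CPM in het1, het2 and homo, against 472 CPM. PTPN6, which encodes SHP-1, rose in het1 cells by 0.70 (adjusted p = 4.51e-13) and in het1 tumours by 0.59 (adjusted p = 1.18e-08), and SHC1, an adaptor of receptor kinases, rose by 0.56 in het1, 0.58 in het2 and 0.97 in homo tumours (adjusted p = 1.15e-08, 8.48e-09 and 2.25e-12).

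Most of the epithelial markers tested fell in the cells and tumours of the lines. Of 12 listed, 11 were tested at day 30, and 10 fell in het1, 9 in het2 and 10 in homo, with none rising. In cells 8 of 10 tested fell in each line, with 2 rising in het1, 2 in het2 and 1 in homo. Of all genes tested, 51.5%, 49.2% and 54.8% were called at day 30 in het1, het2 and homo, and 62.8%, 68.5% and 70.5% in cells. KRT19, a simple epithelial keratin, averaged 5.73 CPM in het1, 1.17 in het2 and 0.0237 in homo cells, against 71.2 CPM in WT cells (adjusted p = 7.89e-31, 4.2e-34 and 2.36e-35). It averaged 55.5 CPM in het1, 55.2 in het2 and 11.7 in homo tumours, against 217 CPM in WT tumours (adjusted p = 1.89e-09, 2.67e-09 and 4.39e-13). CDH1, E-cadherin, fell by 1.43 in het1, 0.88 in het2 and 1.79 in homo tumours on the log2 scale (adjusted p = 2.37e-11, 3.42e-08 and 7.66e-13). Homo tumours, with the lowest KRT19 mean of the day 30 groups, averaged 10664 CPM of CEACAM6, and no link between these levels was tested.

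The genes whose profile over the 12 group means was most like that of a member were found by Pearson's r of log2(CPM + 0.1) among 13125 genes with at least 5 CPM in some group. For CEACAM6 they were MUC5B (r = 0.992), MANSC1 (0.990), GALNT5 (0.9895), HGD (0.989) and BCAS1 (0.989). MUC5B, a secreted gel-forming airway mucin, averaged 5.17 CPM in het1, 0.899 in het2 and 0.0591 in homo cells, against 154 CPM in WT cells, and 1939 to 3616 CPM in the 8 tumour groups. For CEACAM5 they were CEACAM3 (0.998), ETHE1 (0.994), GALNT4 (0.993), CEACAM8 (0.988) and SEMA3B (0.988), and for CEACAM1 CEACAM3 (0.989), KLF4 (0.988), CEACAM8 (0.986), TXNIP (0.985) and GALNT4 (0.985). The groups share lines and tables, the step from cells to tumours dominates these profiles, and the r values are a description.

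CEACAM7 had other companions, HSD11B2 (r = 0.989), RAB20 (0.987), PRR15L (0.981), KRT17 (0.981) and MASP1 (0.979). KRT17, a keratin of stratified epithelium and of stress, averaged 1.48 CPM in het1, 19.4 in het2 and 11.5 in homo tumours at day 30, against 398 CPM in WT tumours. RAB20, a small GTPase, averaged 4.16, 10.9 and 7.52 CPM in the same lines, against 24.1 CPM in WT tumours. For CEACAM19 the values were lower, with FHDC1 (0.964), NGEF (0.962), PITPNM3 (0.958), COL27A1 (0.956) and ZFYVE21 (0.955).

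Library totals ran from 61168373 to 93444327 counts in cells, 63243289 to 99593214 in day 30 tumours and 61937591 to 82475298 in treated tumours. EP300 counts cover the whole gene and do not show the truncation: its means were 185 CPM in het1, 153 in het2 and 190.4 in homo cells, against 115 CPM in WT cells. The summed level of 9 markers of A549 and lung adenocarcinoma was 2852 to 2970 CPM in het1 cells, 2466 to 2533 in het2 cells and 861 to 877 in homo cells, against 14787 to 14889 CPM in WT cells, and 8 of these markers were tested there, 6 of which fell and 2 rose in each line. In day 30 tumours the sum was 5736 to 6982 CPM in het1, 8281 to 10082 in het2 and 5777 to 6516 in homo, against 13851 to 14490 CPM in WT. None of the 9 was at 0 counts in any group. The sum is weighted to its most abundant markers. Among them, AKR1B10 averaged 212 CPM in het1 cells, 203 in het2 cells and 6.48 in homo cells, against 6171 CPM in WT cells.

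Markers of other cell types also moved between tumour groups. Summed over 8 genes, fibroblast markers were at 107 to 290 CPM in het1, 105 to 349 in het2 and 316 to 483 in homo tumours at day 30, against 217 to 362 CPM in WT tumours, with 5 rising and 0 falling in het1, 3 and 0 in het2, and 4 and 1 in homo. They were at 166 to 244 CPM in SAHA-treated and 117 to 136 CPM in DMSO-treated het1 tumours. In that pair of groups CEACAM5, CEACAM6 and CEACAM1 libraries lay higher with SAHA, and of these only CEACAM1 was called. Myeloid markers (6 genes) were at 13.3 to 16.4, 25.1 to 31.4 and 16.9 to 20.2 CPM in het1, het2 and homo tumours, against 32.5 to 45.9 CPM in WT tumours. Of 5 tested, 1 rose and 3 fell in het1, 1 rose and 2 fell in het2, and 3 rose and 1 fell in homo. Endothelial markers (6 genes) were at 1.09 to 1.70, 6.09 to 8.48 and 4.77 to 5.21 CPM in those lines, against 2.43 to 3.31 CPM in WT. Of 5 tested, 0 rose and 2 fell in het1, 3 rose and 0 fell in het2, and 2 rose and 1 fell in homo. None of these markers was at 0 counts in any tumour group, the edited lines also had more fibroblast marker RNA in culture than WT, and their part in the CEACAM levels was not tested.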

How the data were processed

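Reads of 44 polyA libraries (RNeasy Plus Mini and KAPA Stranded mRNA-Seq kits, per the labels' protocols) were aligned by the authors with HISAT2 to hg38 and counted with HTSeq, per the submitters' processing notes. These name no version, strand setting, read length or annotation release. The authors deposited 3 tables of raw counts per gene, for cells, day 30 tumours and treated tumours, with 58721 identifiers each, all of which matched GENCODE 29. Library totals ran from 61168373 to 99593214 counts, no pair of libraries within a group was identical, and counting intervals (95%) and floors (3 counts) cover counting error only.

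The 3 tables were analysed separately in edgeR 4.0.16 (R 4.3.3, limma 3.58.1): TMM scaling, filterByExpr, robust quasi-likelihood test with all groups of the table in the fit, and Benjamini-Hochberg adjusted p under 0.05 over 21704, 22533 or 22586 tested genes. CPM are counts scaled to library size with TMM factors. DESeq2 1.42.0, other scalings and filters, a fold threshold, 1 fit over 44 libraries, fits of only the groups compared, a replicate block and leaving out each library were alternatives. The fit was tested on simulated data. SE is the standard error of a fitted log2 fold change.

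The members and gene lists were chosen with earlier results of these data known. Named were the members, EP300, up to 4 genes per list and comparison with the smallest p (with their values in the other lines), and per member the 5 genes with the highest r over 12 group means of log2(CPM + 0.1).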

Additional observations from a re-analysis of the deposited data

Results flagged for a closer look

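Of 40 pairs of a member and a tumour group of 4 libraries, 2 held a library far from the other 3, which chance gives in about 1 in 20 groups. Both concerned CEACAM6 at day 30. WT tumour replicate 0 had 4979 CPM, against 6906 to 7292 CPM in the other 3 WT tumours. The het2 tumour replicate 1 had 4527 CPM, against 5481 to 5639.8 CPM in the other 3 het2 tumours.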

How the results depend on the processing

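No called difference of a member changed sign under the alternatives run. Some differences that were not called did, among them CEACAM5 without WT DMSO replicate 2, at 0.32 for het1 against WT under DMSO (-0.15 with it) and 0.20 for SAHA in WT (-0.26 with it). Of 1145 values of a member under an alternative, 1095 kept their side of the threshold, 37 lost and 13 gained the call. A fold threshold lowered several counts of members called: a log2 fold change of at least 1 left 1 in het1 against het2 cells (2 without it), 2 in het1 against WT cells (4), 1 in het1 against WT day 30 tumours (3), 1 in het1 against WT DMSO tumours (2), 1 in het2 against WT day 30 tumours (3), 2 in homo against the heterozygous lines at day 30 (4), 2 in homo against WT tumours (4) and 0 for SAHA in het1 (1). For SAHA in het1, DESeq2 gave 2, a filter at a mean of 1 CPM 2, no filter 0, 1 fit over 44 libraries 2, and a fit of only the groups compared 4. The fit over 44 libraries gave 1 in het1 against het2 cells. Replicate numbers did not pair the libraries: the median correlation of same-numbered residuals was -0.00557 in cells, -0.0137 at day 30 and -0.0205 in treated tumours. With the replicate block, the count for SAHA in het1 was 0, with CEACAM1 lost. The block also ended the calls of CEACAM5 in homo against WT tumours, CEACAM1 in het2 against WT tumours, CEACAM1 in homo against the heterozygous tumours and CEACAM5 in het1 against WT under SAHA, and added CEACAM5 in het1 against het2 cells. Without 1 library at a time, counts ranged from 4 to 5 in het1 against WT cells, 3 to 5 in homo against WT cells, 3 to 4 in het1 and 2 to 4 in het2 against WT at day 30, and 0 to 1 for SAHA in het1. SAHA against DMSO in WT called 0 genes under the settings run on all libraries other than DESeq2 (150), no filter (36) and 1 fit over 44 libraries (118). Group means moved by a factor of 0.921 to 1.06 when scaled by total counts alone. Depth limits CEACAM5, CEACAM6 and CEACAM7 in homo cells, at 2, 3 and 4 summed counts.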
